A study of Mus musculus with 36 samples.

Results

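The genes described here are 10 contractile genes of fast skeletal muscle fibres: the myosin heavy chains Myh1, Myh2 and Myh4, the myosin light chains Myl1 and Mylpf, the troponins Tnnc2, Tnni2 and Tnnt3, the Z-disc protein Actn3 and the calcium pump Atp2a1. Each was read on the 1 probe set whose only gene symbol was that member, so the 10 members took 10 of the 21789 probe sets with a single symbol (19938 genes). Skeletal muscle, liver and white adipose tissue came from male C57Bl/6 mice, either wild type (the controls) or with 1 disrupted copy of Myc (Myc+/-), aged 5 or 24 months. RNA of 5 to 8 mice was mixed into 1 pool for each tissue, age and genotype (6 wild type mice at 5 months, 5 wild type at 24 months, 5 Myc+/- at 5 months, 8 Myc+/- at 24 months), and each of the 12 pools was hybridised to 3 arrays. The deletion of 1 Myc copy was present in the whole animal, the same 4 cohorts gave all 3 tissues, and the labels name no particular muscle. Array medians were 6.95 to 7.14 (log2), and arrays of a pool correlated at 0.987 or more.

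Skeletal muscle fibres contract when calcium released from the sarcoplasmic reticulum binds troponin and lets myosin heads pull on actin. Fast fibres build this machinery from their own set of isoforms, and slow fibres use a parallel set from other genes. Heavy chain isoforms mark the fast fibre classes, with Myh2 in type 2A, Myh1 in type 2X and Myh4 in type 2B fibres, of which type 2B is abundant in many limb muscles of the mouse.

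All values are log2 array levels, and a difference between groups is a difference of log2 levels. At the pool level the 3 arrays of a pool were averaged and limma compared the 2 genotypes over both ages, or the 2 ages over both genotypes, within each tissue. A member was called at an adjusted p under 0.05, and the SE after a difference is that of this fit with 2 pools per arm. Such a p measures how alike differences were at the 2 ages or in the 2 genotypes, since no group had a second pool of like mice. All 3 tissues share 1 estimate of this spread for each gene. The SE and interval of a member in muscle thus also hold the disagreement of its pairs in liver and adipose. For Myl1 the age changes in wild type and Myc+/- were -0.003 and -0.06 in muscle but 0.76 and -0.07 in liver, and its SE was 0.18 in each tissue. At the array level the 3 arrays of one pool were compared with the 3 of another; the error is then between arrays of the same RNA, and the test compares 2 mixtures of RNA, not 2 kinds of mice.

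Myh2, Myh1 and Myh4 lie next to each other in that order on chromosome 11 (chr11:67171027-67197517, chr11:67200102-67224577 and chr11:67237812-67260447), and their promoters are shown because the 3 genes were read at high level together in every muscle pool. The sequences come from RefSeq (GRCm38.p6), which held a promoter for 7 of the 10 members (not Tnni2, Tnnt3 or Actn3). Each is the 250 bases before the annotated start site on the strand of the gene (+), and the capitals mark the longest stretch that all 3 share, 20 bases.
Myh2 (chr11:67170777-67171026, + strand): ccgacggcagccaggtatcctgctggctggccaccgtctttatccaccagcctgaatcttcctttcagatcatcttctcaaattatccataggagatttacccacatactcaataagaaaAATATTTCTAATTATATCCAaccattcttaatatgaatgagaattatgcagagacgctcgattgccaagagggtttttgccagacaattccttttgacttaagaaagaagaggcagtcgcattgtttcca
Myh1 (chr11:67199852-67200101, + strand): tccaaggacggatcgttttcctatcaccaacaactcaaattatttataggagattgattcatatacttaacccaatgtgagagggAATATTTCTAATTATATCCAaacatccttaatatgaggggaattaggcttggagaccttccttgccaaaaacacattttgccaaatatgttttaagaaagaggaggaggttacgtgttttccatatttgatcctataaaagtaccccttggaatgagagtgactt
Myh4 (chr11:67237562-67237811, + strand): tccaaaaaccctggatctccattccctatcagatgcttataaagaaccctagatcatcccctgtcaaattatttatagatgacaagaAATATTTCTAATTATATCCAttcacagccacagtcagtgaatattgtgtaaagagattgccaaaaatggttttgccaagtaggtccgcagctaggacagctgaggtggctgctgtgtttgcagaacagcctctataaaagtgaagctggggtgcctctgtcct

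The shared stretch begins at -130 in Myh2, -165 in Myh1 and -163 in Myh4, counted from the start site, and of 32851 RefSeq promoters 3 held it. Myh1 and Myh4 also held a match to the MEF2 motif, the binding motif of myocyte enhancer factor 2, at -211 to -202 and -182 to -173; 3.19% of all promoters of 300 bases (250 before and 50 from the start site) held one on either strand. A match to the TATA box (TATAAA) stood at -32 to -27 in Myh1 and at -31 to -26 in Myh4, and in Myh2 at 11 to 16 after the annotated start. Myh4 held another on the same strand at -213 to -208. In Myh1 and Myh4 a further match on the other strand overlaps the MEF2 match, and 13.6% of promoters held this TATAAA motif. No match to TCAGGTT was found in the 7 windows (4.07% of all promoters). These are matches of letters and do not show that a factor binds.

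The next 2 promoters belong to the light chains, shown because Mylpf was the member called for age in muscle and Myl1 the one called for age in adipose. Mylpf encodes the fast regulatory light chain and Myl1 the fast essential light chain; capitals mark matches to CANNTG, the E-box bound by myogenic factors, and to TATAAA on either strand. Both start sites lie inside the span of the gene (Mylpf chr7:127208848-127214288, Myl1 chr1:66924295-66947932).
Mylpf (chr7:127211358-127211607, + strand): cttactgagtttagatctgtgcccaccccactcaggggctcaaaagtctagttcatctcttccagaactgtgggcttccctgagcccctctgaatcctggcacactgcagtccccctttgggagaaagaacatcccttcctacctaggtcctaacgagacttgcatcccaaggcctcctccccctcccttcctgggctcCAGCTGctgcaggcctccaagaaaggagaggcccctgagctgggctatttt
Myl1 (chr1:66945057-66945306, - strand): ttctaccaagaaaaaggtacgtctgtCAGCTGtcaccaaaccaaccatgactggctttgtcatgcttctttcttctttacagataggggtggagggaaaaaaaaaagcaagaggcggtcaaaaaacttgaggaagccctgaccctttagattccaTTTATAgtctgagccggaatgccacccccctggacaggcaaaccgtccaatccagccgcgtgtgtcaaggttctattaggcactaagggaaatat

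CAGCTG, the E-box form shown in both, was present in 4 of the 7 member promoters (Myh4, Myl1, Mylpf and Atp2a1) against 16.3% of all promoters. It lies at -51 to -46 in Mylpf, at -55 to -50 in Atp2a1, at -67 to -62 in Myh4 and at -224 to -219 in Myl1. Any CANNTG was present in 5 of the 7, also in Tnnc2, and in 72.3% of all promoters.

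All 10 members were high in skeletal muscle. Members above the level filter of the other tissue, set at the 40th percentile of its probe sets, could be compared directly. In liver these were 6, with a level in muscle higher by 6.34 (Myl1) to 7.09 (Actn3), and in adipose 4, with differences of 4.57 ± 0.13 (Myl1), 6.31 (Actn3), 6.62 (Tnni2) and 7.41 (Tnnt3). The members below the filter were tested only because they are high in muscle, so their passing says nothing further, and they are given as the distance of their muscle level from that filter, a bound. It was at least 6.02 (Myh1) to 6.90 (Myh4) for the 4 such members in liver and at least 5.90 (Myh1) to 7.56 (Atp2a1) for the 6 in adipose. Over all probe sets tested, 46.2% were called higher in muscle than in liver and 36.5% higher than in adipose (limma).

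The members read 12.55 to 14.78 on the 12 muscle arrays, whose highest probe sets read 14.86 to 15.30, so the members lay near the top of the range of the arrays. Whether differences are narrowed so near the top was not tested. Mylpf and Myh2, with the widest spans of muscle pool means (0.56 and 0.54), ranked 203 and 148 from the top of 21789 probe sets. Tnnt3 and Atp2a1, with spans of 0.08 and 0.07, ranked 3 and 5, whereas Myh1 ranked 224 with a span of 0.19. The SD between the 3 arrays of a muscle pool was 0.0045 to 0.152 for a member. In liver 4 members (Myh1, Myh2, Myh4, Mylpf) and in adipose 6 (these 4, Tnnc2 and Atp2a1) had a mean below the level filter of 6.87 and 6.99 and were not tested within that tissue.

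**Figure D1:**
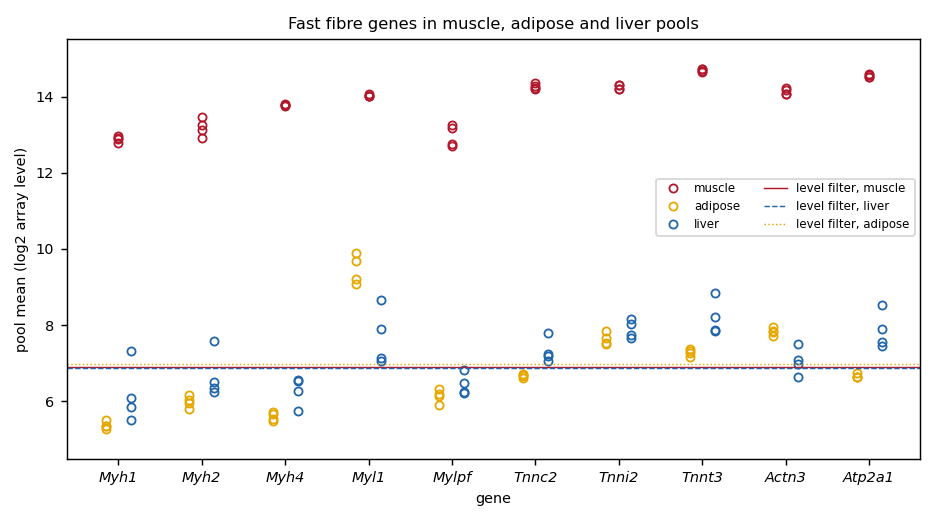
Mean log2 array level of each member in the 4 pools of each tissue (open circles; red, muscle; yellow, adipose; blue, liver), with the level below which a probe set was not tested in a tissue as a line. Muscle pools lie between 12.70 and 14.73 for every member. The liver pools lie between 5.50 and 8.86 and the adipose pools between 5.28 and 9.89, with Myl1 the one member above 9 in adipose.

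Myc served as a check of the labels. In muscle it read 8.96 and 9.20 in the wild type pools at 5 and 24 months and 8.48 and 8.37 in the Myc+/- pools. The difference was -0.65 ± 0.15 (-0.48 at 5 months and -0.82 at 24 months). It was -0.42 ± 0.15 in liver and -0.56 ± 0.15 in adipose. Even Myc was not called for genotype at the pool level (limma, adjusted p = 0.92 in muscle, 0.65 in liver and 0.44 in adipose).

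In muscle, age moved 1 of the 10 members. Mylpf, the regulatory light chain that sits on the neck of fast myosin, fell by 0.49 ± 0.08 on the log2 scale from 5 to 24 months (1.41-fold lower; limma, adjusted p = 0.0049). The members above and below 0 were 5 and 5 with a median of -0.0017, beside 41.0% of probe sets called (18.2% lower at 24 months, 22.8% higher) and a median of 0.02 over all 13073 tested. The single call is thus a smaller share of the members than of all probe sets.

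Mylpf read 13.18, 13.10 and 13.24 on the arrays of the 5-month wild type pool and 13.30, 13.29 and 13.21 on those of the 5-month Myc+/- pool. At 24 months it read 12.74, 12.55 and 12.82 in wild type and 12.80, 12.59 and 12.88 in Myc+/-. Every 24-month array lay below every 5-month array. That held for 4 of the 10 members (Myh2, Mylpf, Tnnc2 and Tnni2), beside 17.0% of probe sets. The fall was -0.47 ± 0.11 in the wild type pair and -0.51 ± 0.11 in the Myc+/- pair (array level, adjusted p = 0.00061 and 0.0003). With any 1 of the 4 muscle pools left out, the difference was -0.51 to -0.47 and the adjusted p at the pool level 0.052 to 0.054, so the call rests on both pairs.

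Myh2, the heavy chain of type 2A fibres, was lower at 24 months in both pairs, but unequally. It read 13.44, 13.37 and 13.55 in the 5-month wild type pool, 13.39, 13.21 and 13.17 in the 5-month Myc+/- pool, 12.94, 12.87 and 12.93 in the 24-month wild type pool and 13.14, 13.10 and 13.14 in the 24-month Myc+/- pool. Within each genotype the arrays of the 2 ages did not overlap. That held for 6 of the 10 members in wild type and 6 in Myc+/-, beside 60.4% and 56.6% of all probe sets, and so does not set the members apart. The difference between the ages was -0.54 ± 0.11 in wild type (array level, adjusted p = 7.2e-05) and -0.13 ± 0.11 in Myc+/- (adjusted p = 0.33). The test of the difference between these 2 changes gave 0.41 ± 0.15 (array level, adjusted p = 0.15). At the pool level the mean of both, -0.33 ± 0.22, missed the threshold (adjusted p = 0.26), with a 95% interval of -0.86 to 0.19. It passed only when the 36 arrays were fitted singly in limma with the pool as a random block (adjusted p = 0.032). That fit set a correlation of 0.18 between arrays of a pool, so it counts arrays of the same RNA nearly as separate samples. This pass does not speak for a difference between mice.

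The other heavy chains showed no such fall. Myh1, of type 2X fibres, differed with age by 0.09 ± 0.19 (-0.02 in wild type, 0.19 in Myc+/-). Myh4, of type 2B fibres, differed by 0.03 ± 0.11 (0.06 in wild type, -0.01 in Myc+/-). Neither passed (adjusted p = 0.74 and 0.86), and their 95% intervals were -0.37 to 0.55 and -0.24 to 0.30. Heavy chain genes of this cluster have closely similar coding sequences, so the signal of a probe set on one can include transcript of another, and the values of the 3 heavy chains are uncertain to that degree.

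Actn3 (chr19:4861216-4877909), alpha-actinin 3, anchors thin filaments at the Z disc of fast fibres, mainly type 2B. It read 14.07, 14.05 and 14.10 (5-month wild type), 14.10, 14.10 and 14.03 (5-month Myc+/-), 14.20, 14.22 and 14.29 (24-month wild type) and 14.19, 14.17 and 14.18 (24-month Myc+/-). It is among the members whose arrays did not overlap between the ages within either genotype. The difference of 0.14 ± 0.07 (1.10-fold) missed the threshold at the pool level (adjusted p = 0.16), with a 95% interval of -0.03 to 0.30. With muscle fitted alone it passed (adjusted p = 0.046).

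The troponins, the other light chain and the pump were not called. Tnni2 (chr7:142441816-142444410) and Tnnt3 (chr7:142498771-142516213) are neighbours. Tnnc2 (chr2:164777161-164779734), the calcium-binding subunit, differed by -0.11 ± 0.16 with age, Tnni2, the inhibitory subunit, by -0.11 ± 0.07, and Tnnt3, the subunit that ties troponin to tropomyosin, by 0.06 ± 0.14. None of the 3 was called (adjusted p = 0.63, 0.24 and 0.76). Myl1 differed by -0.03 ± 0.18 and Atp2a1 (chr7:126445858-126463103), the pump SERCA1 that returns calcium to the sarcoplasmic reticulum of fast fibres, by 0.05 ± 0.16. With single arrays and any fold, of the 10 members, 3 (Myh2, Mylpf, Actn3) were called in the wild type pair and 1 (Mylpf) in the Myc+/- pair, beside 54.3% and 48.5% of all probe sets. With at least a 1.5-fold difference required, 0 and 0 members passed, beside 10.7% and 8.35%.

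**Figure D2:**
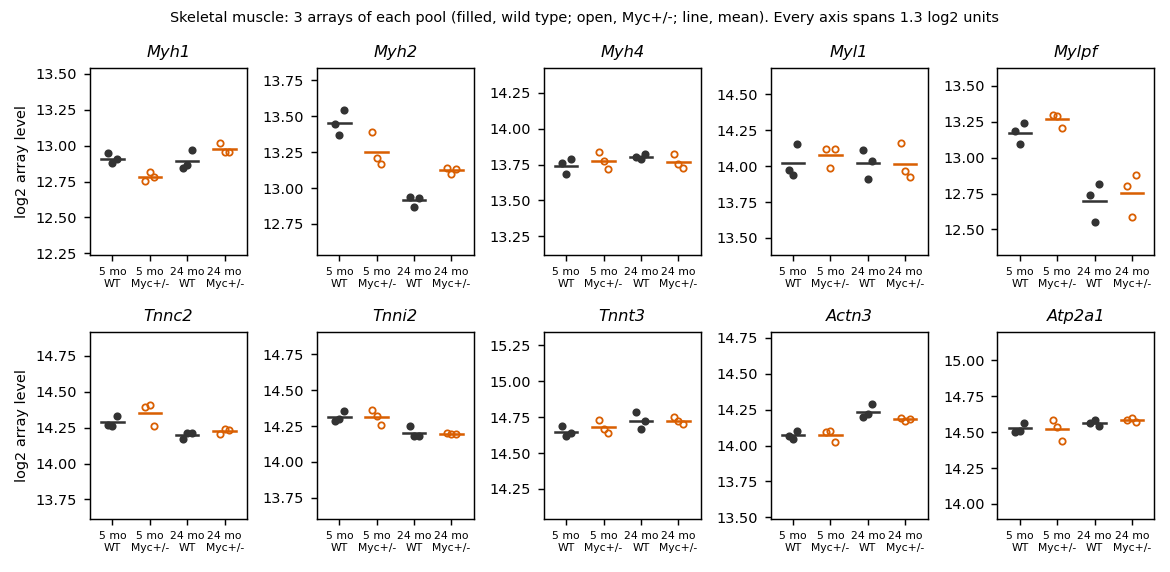
Log2 level of each member on the 3 arrays of each muscle pool (points; filled, wild type; open, Myc+/-), with the pool mean as a line; every panel spans 1.3 log2 units. Mylpf, like Myh2, Tnnc2 and Tnni2, is lower on all 6 arrays of the 24-month pools than on all 6 of the 5-month pools. Myh2 steps down less in Myc+/- than in wild type, and the pool means of Myh4, Myl1, Tnnt3 and Atp2a1 span 0.0575 to 0.0761.

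The difference in age change between the genotypes was called for 0 of the 10 members in muscle (array level), beside 4.78% of all probe sets. Apart from Myh2, these differences ran from -0.07 (Myh4) to 0.21 (Myh1).

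Genotype left all 10 members close to 0 in muscle. The differences, Myc+/- minus wild type, ran from -0.03 (Actn3) to 0.07 (Mylpf) with a median of 0.0075, and 0 of 10 were called, beside 0 called of 13073 probe sets tested (0%). Over all probe sets 611 had an unadjusted p under 0.05, and the smallest adjusted p was 0.731. The 95% intervals of the members reached no further than -0.52 to 0.53, both those of Myh2; Actn3 and Tnni2 had the narrowest, -0.19 to 0.14 and -0.17 to 0.17. A missed threshold with intervals this wide does not show that the 2 genotypes were alike.

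Each age was also taken alone. At 5 months the largest difference was that of Myh2, -0.20 ± 0.11, and at 24 months again that of Myh2, 0.21 ± 0.11, in the other direction. Myh1 differed likewise by -0.13 ± 0.12 and 0.08 ± 0.12. With single arrays 0 members were called at 5 months, beside 1.27% of probe sets (0.428% with at least 1.5-fold), and 0 at 24 months, beside 9.50% (1.55% with at least 1.5-fold). Between the genotypes, the arrays did not overlap for 1 member at 5 months (Myh1), beside 20.5% of probe sets, and for 2 at 24 months (Myh2 and Actn3), beside 21.2%.

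Other muscle genes were read in the same pools. Over all probe sets tested in muscle, 22.8% were called higher and 18.2% lower at 24 months, and each list count below stands beside these shares. Of 14 tested genes of a list of other fast fibre proteins, 5 rose and 0 fell (median 0.14). Gpd1, a glycerol phosphate dehydrogenase, rose by 1.02 ± 0.07 and Myom2, an M-band protein, by 0.63 ± 0.08. Mylk2, the kinase that phosphorylates Mylpf protein in skeletal muscle, rose by 0.60 ± 0.07. Mybpc2, the fast myosin binding protein C, rose by 0.47 ± 0.07 and Tpm1, a tropomyosin, by 0.35 ± 0.05 (limma, adjusted p = 0.00032 to 0.0033 over the 5). The count of 5 was the same with any 1 muscle pool left out.

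Of 14 tested slow fibre genes, 8 fell and 1 (Tpm3, a tropomyosin gene) rose, with a median of -0.70 (-1.01 in wild type and -0.37 in Myc+/-). Myl2, the slow counterpart of Mylpf, fell by 1.73 ± 0.15 on the log2 scale, and Tnnc1, the slow counterpart of Tnnc2, by 1.64 ± 0.17 (adjusted p = 0.00055 and 0.00097). Myl3, the slow counterpart of Myl1, fell by 1.39 ± 0.16 and Myh7, the slow heavy chain, by 0.71 ± 0.15. With the 5-month or the 24-month wild type pool left out, 5 slow genes fell; with either Myc+/- pool left out, 10 did and Tpm3 was no longer called, as with pan-fibre centring.

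Genes that all fibres use were called in both directions, and no more often than all probe sets (41.0%). Of 16 pan-fibre genes, 2 rose (Des and Tmod4) and 3 fell (Tcap, Cox6a2 and Ckmt2), with a median of 0.03; Cox6a2, a muscle cytochrome oxidase subunit, fell by 0.57 ± 0.11 and Ckmt2, the mitochondrial creatine kinase, by 0.55 ± 0.15. Without either wild type pool 0 of the 16 rose and 0 fell, and without either Myc+/- pool 0 rose and 2 fell. Of 4 tested developmental isoforms 2 rose, Actc1, the cardiac actin of developing muscle, by 0.52 ± 0.11 and Myl4, an embryonic light chain, by 0.40 ± 0.11.

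Of 12 genes of calcium release, 2 rose (Jph1 and Asph) and 3 fell (Stac3, Jph2 and Hrc), with a median of -0.02; Stac3, which couples the calcium channel to its release channel, fell by 0.47 ± 0.06 and Jph2, a junctophilin, by 0.37 ± 0.08. With arrays centred on the pan-fibre genes, 0 rose and 1 fell, and the same was found without either wild type pool; without either Myc+/- pool 0 rose and 2 fell. Of 20 tested regulators of fibre type, 4 rose and 6 fell, with a median of -0.05. The counts of both lists stand beside 41.0% of all probe sets called (22.8% higher, 18.2% lower). Mef2a, a factor of the MEF2 family, rose by 0.83 ± 0.05 and Tbx15, a T-box factor of glycolytic fibres, by 0.79 ± 0.09, whereas Myod1, the myogenic factor more abundant in fast fibres, fell by 0.75 ± 0.12. The 6 that fell became 1 with pan-fibre centring, 0 without either wild type pool and 4 without either Myc+/- pool. For genotype, 0 genes of these lists were called in muscle; among them Jsrp1, a protein of the calcium release site, differed by 0.29 ± 0.07 and Myl3 by 0.23 ± 0.16.

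**Figure D3:**
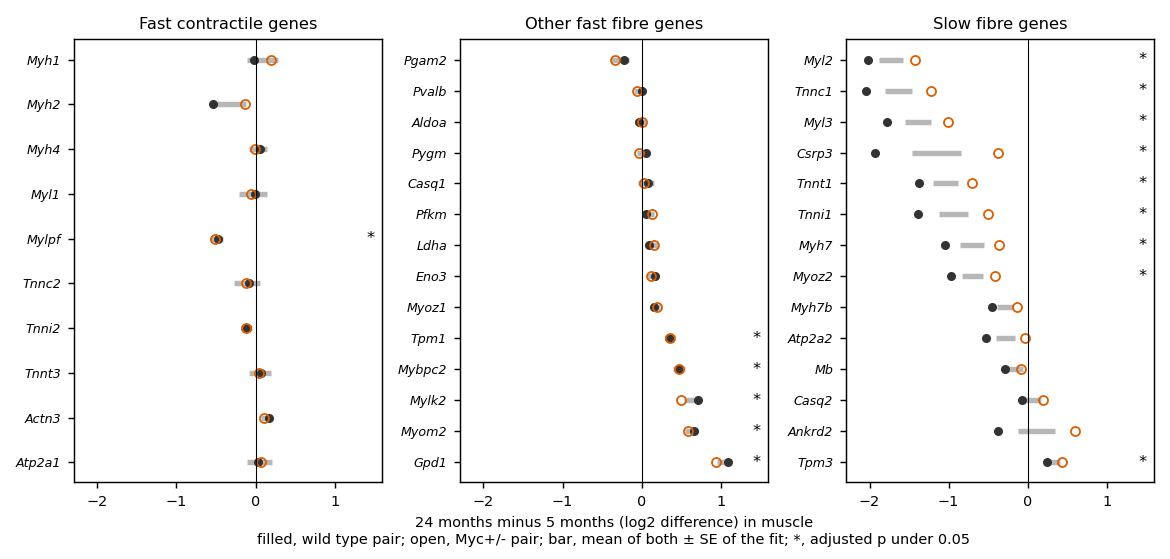
Difference between 24 and 5 months in muscle (log2; x axis) for the 10 members, 14 other fast fibre genes and 14 slow fibre genes, in the wild type pair (filled) and the Myc+/- pair (open), with the mean ± SE of the pool-level fit as a grey bar and a star where the adjusted p was under 0.05. Mylpf is the one starred member, 5 other fast genes are starred to the right of 0, and 8 slow genes are starred to the left.

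Markers of other cell types were read in the same pools, and their counts stand beside 22.8% of all probe sets called higher and 18.2% lower at 24 months. The mean level of 7 adipocyte markers was 10.28 and 10.23 in the 5-month wild type and Myc+/- muscle pools and 11.82 and 10.83 at 24 months, and 6 of 7 rose. The mean of 6 epidermis markers was 7.63 and 6.60 at 5 months and 9.32 and 9.03 at 24 months, with 5 of 5 tested higher. Krt14 lay below the muscle filter in both 5-month pools (6.88 and 6.32), and Krt5 and Lor in the 5-month Myc+/- pool (5.98 each). They entered the test through their higher pools, so this count is partly set by the filter. The mean of 6 fibroblast markers was 11.07 and 10.96 at 5 months and 10.40 and 10.40 at 24 months, with 4 of 6 lower. The mean of 7 hepatocyte markers was 8.50, 7.32, 6.67 and 7.96 in the 5-month wild type, 5-month Myc+/-, 24-month wild type and 24-month Myc+/- pools, and 0 of 5 tested were called; macrophage markers had means of 9.16 to 9.64, with 2 of 6 higher. The 4 heart markers had means of 6.68 to 6.91, near the muscle filter of 6.91, and the 2 nerve markers 7.58 to 7.87; of 5 endothelium markers 1 rose and 2 fell. The mean of 3 brown fat markers was 7.85 and 7.75 in the 5-month wild type and Myc+/- pools and 8.87 and 7.82 at 24 months. The 1 of them tested in muscle, Ppargc1a, was not called. The 6 skeletal muscle markers had means of 13.78 to 13.82 in the 4 pools. The part of these cell types in the age differences of the members and of the listed fibre genes, Gpd1 among them, was not tested. In pooled tissue, fewer fibres of a type and less RNA of a gene per fibre cannot be told apart.

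Liver held the members at low level, and the largest differences among them were there. Averaged over both ages, all 6 members above the filter read lower in Myc+/- liver than in wild type (at 5 months alone Tnnc2 differed by 0.07), with a median difference of -0.54 (5-month pair -0.34, 24-month pair -0.86), beside a median of 0.0038 over all probe sets. At the pool level 0 of 6 passed (0% of all probe sets did, 957 had an unadjusted p under 0.05, and the smallest adjusted p was 0.165). Myl1 differed by -1.19 ± 0.18, Atp2a1 by -0.71 ± 0.16, Tnnt3 by -0.68 ± 0.14, Tnni2 by -0.41 ± 0.07, Actn3 by -0.37 ± 0.07 and Tnnc2 by -0.33 ± 0.16 (limma, adjusted p = 0.32 to 0.71). With either 5-month liver pool left out, which leaves the 24-month pair and borrows its spread from the other tissues, 3 passed (Myl1, Tnnt3 and Atp2a1), beside 0.0535% of probe sets lower in Myc+/- in either fit. With arrays centred on the pan-fibre genes, 2 did (Myl1 at -0.85 and Atp2a1 at -0.37), beside 0.0612% of probe sets lower. The pan-fibre genes themselves read lower in Myc+/- liver, so this centring raised the median difference over all probe sets to 0.34. In that fit 7839 of 13073 had an unadjusted p under 0.05. The lower share of 0.0612% stands beside 0% called without centring. Since the centring shifted all probe sets, the 2 calls are not read as setting these members apart.

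Myl1 read 7.55, 8.21 and 7.98 in the 5-month wild type liver, 7.22, 6.73 and 7.46 in the 5-month Myc+/- liver, 8.85, 8.73 and 8.44 in the 24-month wild type liver and 7.35, 6.88 and 6.98 in the 24-month Myc+/- liver. Tnnt3 read 8.09, 8.33 and 8.26 in the first of these pools, 7.82, 7.83 and 7.97 in the second, 8.89, 8.85 and 8.83 in the third and 7.68, 7.83 and 8.04 in the fourth. Atp2a1 read 7.72, 8.14 and 7.84, then 7.52, 7.49 and 7.68, then 8.44, 8.53 and 8.63, then 7.53, 7.48 and 7.34 in the same order. For these 3 genes and Tnnc2 the arrays of the 24-month wild type pool lay above those of each other liver pool, as for 7.96% of probe sets.

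At the array level and with at least a 1.5-fold difference, 1 of 6 members was lower in Myc+/- liver at 5 months (Myl1, -0.78 ± 0.13), beside 0.0841% of probe sets lower and 0.459% called in either direction. At 24 months 4 of 6 were, beside 0.734% lower and 1.81% in either direction: Myl1 by -1.60 ± 0.13, Atp2a1 by -1.09 ± 0.09, Tnnt3 by -1.003 ± 0.08 and Tnnc2 by -0.72 ± 0.11. The same 4 were higher at 24 months than at 5 months in wild type liver, by 0.61 (Tnnc2) to 0.76 (Myl1), beside 10.01% of probe sets higher and 14.4% in either direction, and in Myc+/- liver 0 of 6 differed with age, beside 11.9%. These 2 age comparisons and the 2 genotype comparisons share pools. The test of the difference in age change was called for the same 4, at -0.83 ± 0.19 (Myl1), -0.79 ± 0.15 (Tnnc2), -0.75 ± 0.13 (Atp2a1) and -0.65 ± 0.11 (Tnnt3), beside 4.70% of probe sets below 0 and 9.29% in either direction.

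General muscle genes also read lower in Myc+/- liver. The mean level of the 16 pan-fibre genes in liver was 7.10 and 6.95 in the 5-month wild type and Myc+/- pools and 7.46 and 6.93 at 24 months, and 8 of their 8 tested members were lower in Myc+/- (median -0.24, 0 called). Acta1, skeletal muscle actin, read 8.48, 8.35, 9.20 and 8.20 in the same order of pools, and Ckm, muscle creatine kinase, 8.55, 8.26, 8.73 and 7.98. Both are among the muscle markers, and the part of muscle RNA in the liver differences was not tested. The 7 hepatocyte markers had means of 14.08 to 14.28 in the 4 liver pools. In the 5-month Myc+/- liver pool the first array was the lowest for each of the 7. Alb read 13.74 there against 14.82 and 14.73, and Ttr 13.73 against 14.64 and 14.60.

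Actn3 had a different age pattern in liver. It read 7.44, 7.62 and 7.45 in the 5-month wild type pool, 6.96, 6.99 and 7.29 in the 5-month Myc+/- pool, 6.94, 6.91 and 7.07 in the 24-month wild type pool and 6.66, 6.74 and 6.55 in the 24-month Myc+/- pool. It fell with age by 0.48 ± 0.07 on the log2 scale at the pool level (adjusted p = 0.0023), the 1 of 6 members called there, beside 16.8% of probe sets lower and 46.9% in either direction, and it still passed with any 1 liver pool left out (adjusted p = 0.015 to 0.033). The age difference of Actn3 in muscle minus that in liver was 0.62 ± 0.10 (limma, adjusted p = 0.018, with muscle values 0.14 and liver values -0.48), beside 9.34% of the 11859 probe sets tested in both; of the other 5 members tested there 0 passed. Actn3 was close to the liver filter of 6.87: its mean was 7.29 over the 5-month pools and 6.81 over the 24-month pools, so it entered both of these tests through its 5-month level, and the size of the fall is uncertain.

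The 4 members below the liver filter were described without a test. Myh1 had pool means of 5.84, 5.50, 7.32 and 6.08 (5-month wild type, 5-month Myc+/-, 24-month wild type, 24-month Myc+/-) and Myh2 of 6.35, 6.24, 7.60 and 6.51, so that for both the 24-month wild type pool was the one above the filter. Myh4 had means of 6.57, 6.54, 6.27 and 5.75 and Mylpf of 6.81, 6.48, 6.25 and 6.22, all below it.

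**Figure D4:**
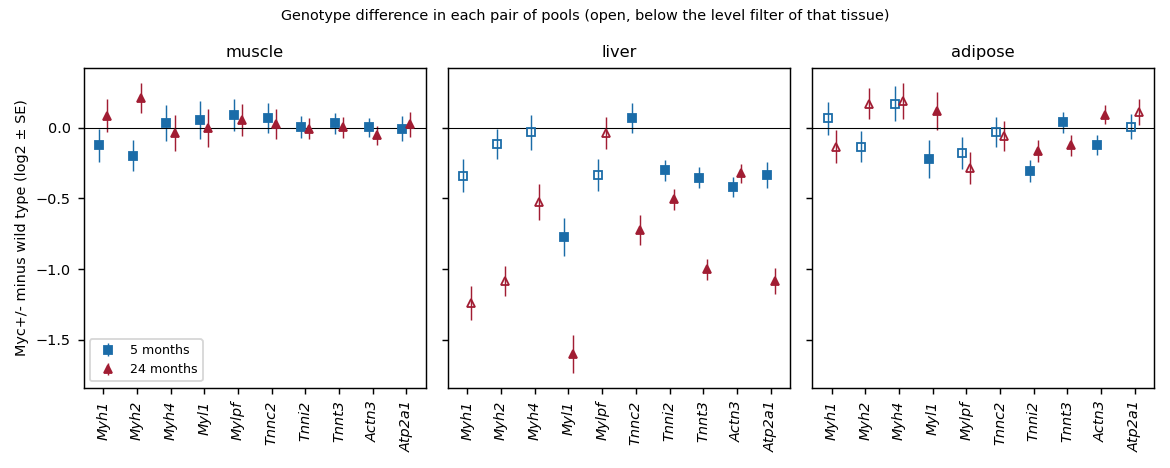
Difference between Myc+/- and wild type (log2 ± SE of the array-level fit; y axis) for each member in the pair of pools at 5 months (squares) and at 24 months (triangles), in muscle, liver and adipose; open symbols lie below the level filter. In muscle all values lie between -0.20 and 0.21, and in liver the 24-month values reach -1.60 for Myl1.

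In adipose 4 members could be tested, and age moved Myl1. It read 9.96, 9.73 and 9.99 in the 5-month wild type pool, 9.55, 9.70 and 9.76 in the 5-month Myc+/- pool, 9.14, 9.10 and 9.00 in the 24-month wild type pool and 9.31, 9.17 and 9.12 in the 24-month Myc+/- pool, so that all 24-month arrays lay below all 5-month arrays, as for 13.7% of probe sets. At the pool level Myl1 fell by 0.64 ± 0.18 on the log2 scale (1.56-fold lower; adjusted p = 0.042), the 1 of 4 members called, beside 14.0% of probe sets lower and 26.0% in either direction. The call was lost with any 1 adipose pool left out (difference -0.81 to -0.47, adjusted p = 0.10 to 0.33), without a level filter (adjusted p = 0.051) and without the second array of each pool (adjusted p = 0.075). At the array level with at least a 1.5-fold difference it was called in wild type (-0.81 ± 0.13), 1 of 4 beside 2.85% lower and 8.58% in either direction, and in Myc+/- (-0.47 ± 0.13) 0 of 4 were, beside 5.94%.

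Myl4, the embryonic light chain, read in adipose 9.58 and 9.76 in the 5-month pools and 8.86 and 8.98 in the 24-month pools of wild type and Myc+/-. The 6 skeletal muscle markers had means of 7.54 and 7.58 in the 5-month adipose pools and 7.36 and 7.61 in the 24-month pools of wild type and Myc+/-, and Acta1 read 9.55, 9.54, 8.25 and 9.34 in that order; the part of muscle RNA in the Myl1 difference was not tested. The other tested members differed with age in adipose by -0.13 (Tnnt3) to 0.13 (Actn3). For genotype 0 of 4 were called at the pool level, beside 0.00765% of probe sets, with Tnni2 lowest at -0.24 ± 0.07 (adjusted p = 0.50). At the array level with at least a 1.5-fold difference 0 of 4 were called at 5 and at 24 months, beside 1.37% and 1.20%. The difference in age change between the genotypes was called for 0 of 4, beside 7.14%.

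**Figure D5:**
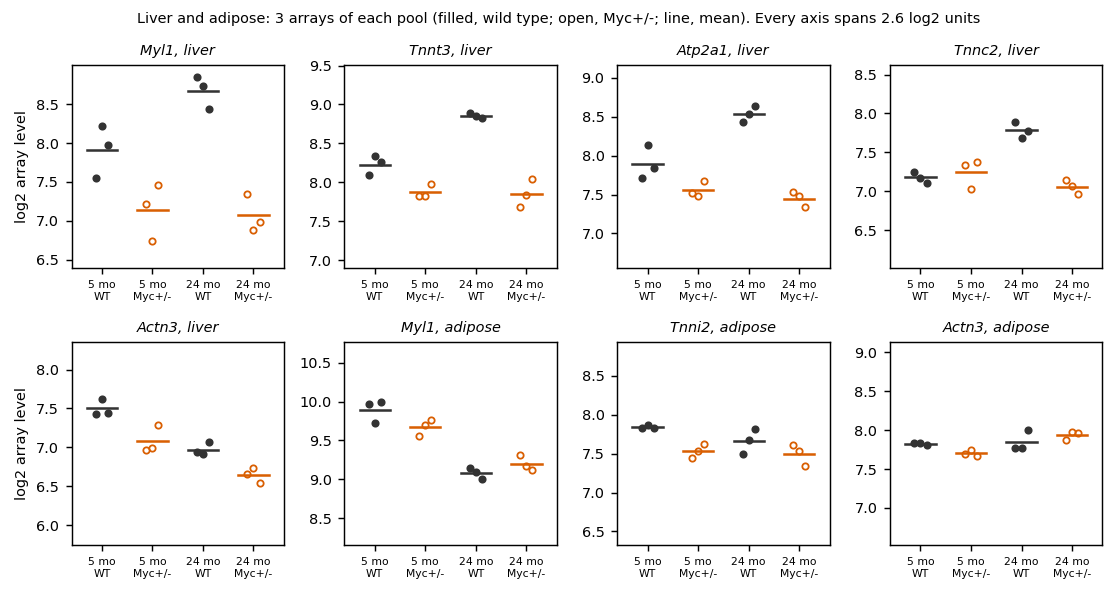
Log2 level of 5 members in liver and 3 in adipose on the 3 arrays of each pool (points; filled, wild type; open, Myc+/-), with the pool mean as a line; every panel spans 2.6 log2 units. The 24-month wild type liver pool stands above the other liver pools for Myl1, Tnnt3, Atp2a1 and Tnnc2 and not for Actn3, and Myl1 in adipose is lower in both 24-month pools.

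Over the 12 pools, the 5 genes whose level ran closest to the mean profile of the members, each centred on its own mean, were Klhl41 (root mean square distance 0.181, log2), Ryr1 (0.183), Ttn (0.186), Mybpc1 (0.189) and Ckmt2 (0.192). The members themselves lay 0.199 (Tnni2) to 1.10 (Myl1) from that mean, with Myl1 farthest. Over the 8 liver and adipose pools the closest were Xirp2 (0.107), Cacna1s (0.116), Ryr1 (0.120), Tmod4 (0.120) and Crybb3 (0.133). The distance over 12 pools is set largely by the step between muscle and the other tissues.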

How the data were processed

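Values were the authors' deposited log2 levels of Affymetrix Mouse Gene 1.0 ST arrays; the submitters' processing notes name Affymetrix Expression Console and RMA. Genome build and versions are not given in the sources used here. RMA brings the arrays to a shared distribution. All 35556 probe sets were read, and the 21789 with 1 gene symbol in the platform annotation were kept. Pool means were fitted with limma 3.58.1 (R 4.3.3, eBayes with an intensity trend; 9 coefficients, 3 residual and 3.68 prior degrees of freedom), and 36 single arrays for pairs of pools. In each tissue 13073 probe sets above the 40th percentile were tested, with Benjamini-Hochberg adjustment, on scripts tested on simulated data. Array-to-array scatter sets the precision of a pool, and the number of pools that of an age or genotype difference. The labels give no batch, and do not say which of the homogenization methods each sample had. Members, lists and tests were chosen with earlier results of these data known. From each list the genes with the largest muscle differences were named (2 for age, 2 for genotype), and further called genes after their values were seen. No value was dropped or imputed.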

Additional observations from a re-analysis of the deposited data

Results flagged for a closer look

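The age change of 4 members in liver differed between the genotypes beyond array-to-array error: Myl1 by -0.83, Tnnc2 by -0.79, Atp2a1 by -0.75 and Tnnt3 by -0.65 (Myc+/- change minus wild type change, log2; limma on single arrays, adjusted p = 0.0032, 0.00035, 8e-05 and 5e-05). Each value compares 4 mixtures of RNA, 1 for each age and genotype. The age change of Actn3 differed between muscle and liver by 0.62 at the pool level (adjusted p = 0.018), beside 9.34% of probe sets; its 24-month mean in liver, 6.81, is below the level filter of 6.87, so it was tested there through its 5-month level.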

How the results depend on the processing

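Counts of called members moved under several alternatives. At the pool level, muscle age (1 called) became 2 with muscle fitted alone and 2 with single arrays and the pool as a random block. Mylpf was no longer called with any 1 muscle pool left out. Liver age (1) became 5 without a filter, ran from 1 to 5 with a pool left out and from 1 to 2 with a replicate left out. Liver genotype (0) became 2 with pan-fibre centring and ran from 0 to 3 with a pool left out. Adipose age (1) became 0 without a filter, and ran from 0 to 1 with a pool or a replicate left out. At the array level, without a minimum fold, muscle age became 3 in wild type and 1 in Myc+/- (both 0), liver genotype at 5 months 5 (from 1), liver age in Myc+/- 1, adipose genotype at 5 months 1 and adipose age in Myc+/- 3 (each from 0). With a 2-fold minimum, liver genotype at 5 months, liver age in wild type (4) and adipose age in wild type (1) became 0, and without a filter liver age in Myc+/- became 1. With a replicate left out, the ranges were 2 to 4 (liver age, wild type), 0 to 1 (liver genotype at 5 months), 0 to 1 (muscle age, Myc+/-) and 0 to 1 (adipose age, Myc+/-). The causes were not tested.

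Of 810 single-gene values under alternatives, 689 kept direction and call, 56 lost a call, 19 gained one, 46 moved and 0 called values reversed; 58 uncalled values had the other sign. The array numbers count technical runs and do not pair samples: same-numbered muscle arrays deviated together with a median correlation of 0.0766 (8 of 18 pairs over 0.1). With the array number as a technical replicate block, liver genotype at 24 months stayed at 4 called members, and no other count moved. With 1 pool left out, the lone pool is assumed to vary like those of the other tissues. Another probe set per member was not run, as each has 1. The number of pools limits the precision.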
